A study of Glycine max with 4 samples.

Results

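A stretch of soybean chromosome 18 was examined in which neighboring aCGH probes gave much stronger signal from mutant DNA at some places and much stronger signal from wild-type DNA at others. It was taken as all probes of chromosome 18 with a start from 11 Mb up to 14 Mb (genome version Glyma.Wm82.a2.v1), which were 2564 of the 53461 probes of the chromosome and of the 951614 probes of the array. The stretch was chosen by its log2 ratios against wild type on these same 4 arrays, so the ratios and the dye signals are given as a description, without a test. The difference between the mutant lines was tested. Agreement of all 4 arrays entered the choice, however, so closeness of the lines at the shifted probes is not independent of it. Calls of P06 against M92-220 are only counted.

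Leaf DNA of 4 soybean plants was hybridized, 1 plant per array and 1 array per slide. Plants 35 and 45 belonged to the fast neutron line CM7F040P06 (P06) and plants 15 and 39 to the fast neutron line CM7F040P05 (P05). The paper lists a name ending in CM7F040P06 for its high-sucrose and low-oil mutant. Both line labels begin with CM7F040, so the lines may share descent. Agreement between them may come from that, which was not tested. DNA of the unirradiated parent, M92-220 (M92-220-Long in the labels), was the partner on every array. On every array the mutant was labeled with Cy3 and M92-220 with Cy5, from 500 ng of DNA each, and no dye swap was made. All 4 mutant plants therefore share the M92-220 background, a fast neutron origin, the dye and the wild-type partner. A ratio seen on all 4 arrays cannot be told apart from a property of that partner or of the dyes, and the spread of M92-220 itself was not measured. Each line was represented by 2 plants, so error here means the spread between individual plants.

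Fast neutrons break chromosomes, and the lines that come out of such a treatment carry deletions, duplications and rearrangements. In aCGH, DNA from the mutant and from the wild type compete for the same short probes. A log2 ratio of mutant over M92-220 above 0 means more signal from the mutant, and a ratio below 0 more signal from M92-220. The ratio alone does not tell a change in copy number from a change in the sequence under the probe. The probes were made from the soybean reference genome, so a stretch that the reference has and a plant lacks gives weak signal from that plant.

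The 4 arrays had median processed signals of 1034 to 1054 in Cy3 and 1042 to 1054 in Cy5, and no probe of the stretch was saturated. The scanner software marked 244, 229, 210 and 861 spots on the arrays of plants 35, 45, 15 and 39, and these spots were left out. Probes of the stretch were 45 to 60 bp long and lay a median of 520 bp apart, against 474 bp over the array.

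Within the stretch, 32 probes had a log2 ratio of 1 or higher on each of the 4 arrays (high probes), and 25 had a ratio of -1 or lower on each (low probes). High probes were 1.25% of the stretch and 0.0354% of the rest of chromosome 18. Over the whole array, 193 of the 951298 probes with a value on every array were high (0.0203%). Low probes were 0.975% of the stretch, 0.0314% of the rest of chromosome 18 and 0.0249% of the array (237 probes). Because the stretch was picked for these ratios, the shares describe how it stands out and support nothing further. The other 2507 probes of the stretch were not shifted in this sense, so both kinds of shifted probe together made up 2.22% of it.

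The contrast with the rest of the genome was sharper for large ratios. Of the 46 probes of the array at 2 or higher on all 4 arrays, 21 lay in the stretch, and of the 35 at -2 or lower, 13 did. The SD of the mean ratio across probes was 0.627 in the stretch and 0.211 in the rest of chromosome 18. By computed ratio, 9 high probes had a mean between 1 and 2, 10 between 2 and 4, and 13 above 4, with a median of 3.63. The low probes fell into 11, 4 and 10 probes over the same sizes below 0, with a median of -3.23. At 7 high and 8 low probes the dim dye was not well above background on any array, and at 5 and 2 more on some arrays. The classes and medians include such probes and are not measured sizes. The low median was itself the ratio of such a probe, Gm_CUST_P12868150.

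**Figure D1:**
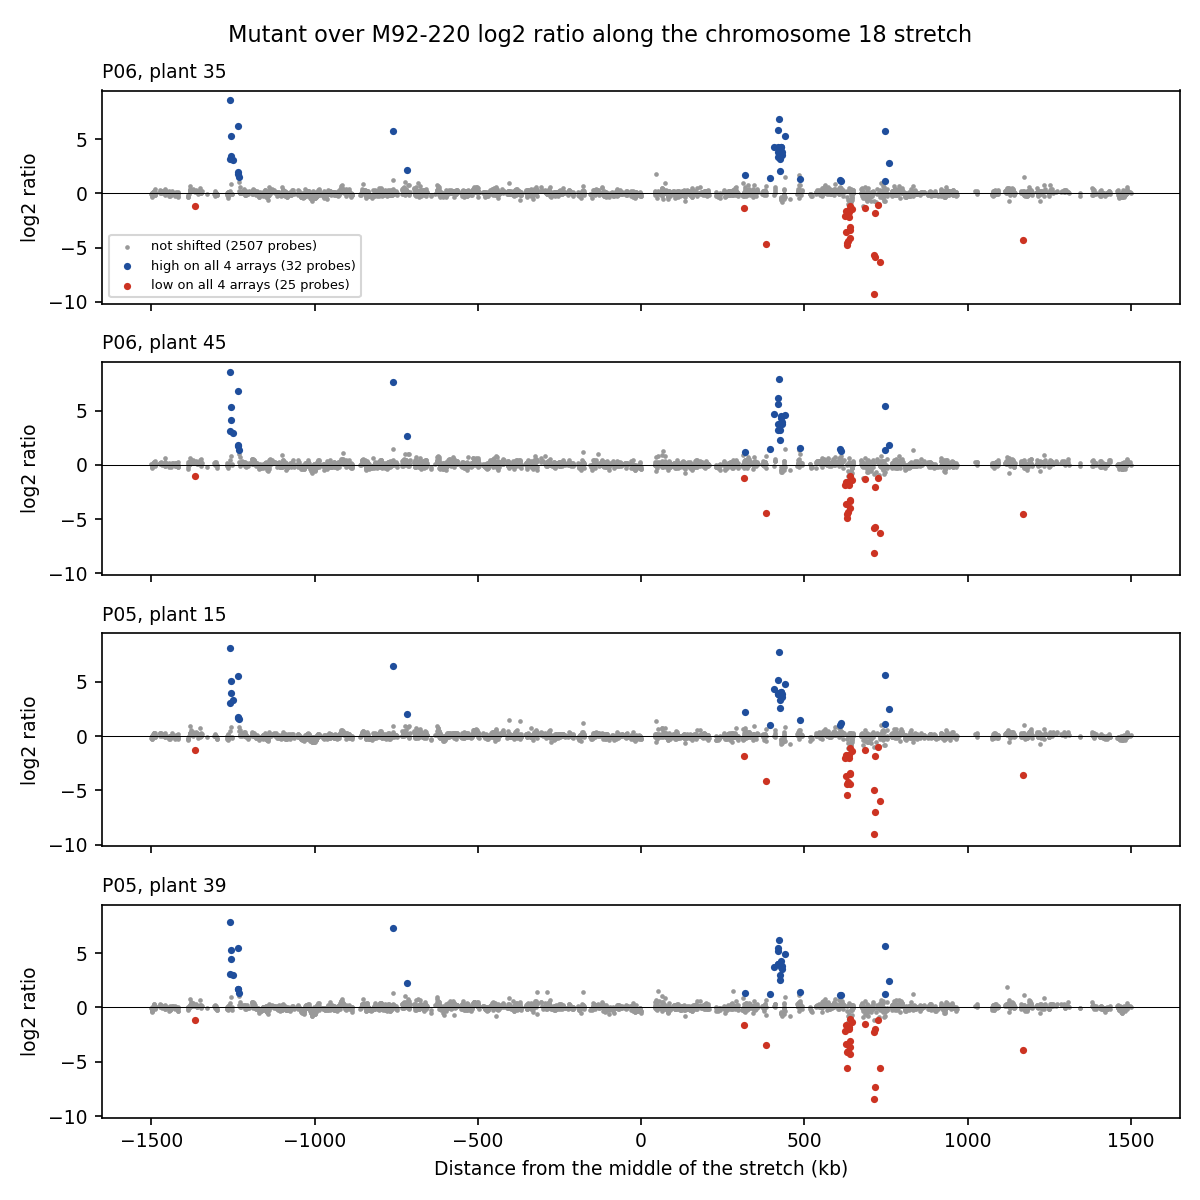
Centered log2 ratio of mutant over M92-220 (vertical axis) for all 2564 probes against distance from the middle of the stretch in kb, 1 panel per plant. Blue points are the 32 high probes, red points the 25 low probes and gray points the 2507 others; colored points pass the limit in all 4 plants by definition.

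High and low probes lay in a few short clusters, separated by quiet intervals of very different length. Joining shifted probes of the same direction that lay no more than 20 kb apart, with no probe of the other direction between them, gave 15 groups. Groups of 3 or more probes are called blocks here, a definition set after the values had been seen. There were 5 blocks, which together covered 123.388 kb and held 46 of the 57 shifted probes. Their direction in map order was high, high, low, low and high. The last of them counts as a block only with a probe that was near background in both dyes. Over all 57 shifted probes in map order, the direction switched 8 times. Some of these switches, from low to high and back to low, rest on the single high probe Gm_CUST_P12867336 (12819039 to 12819098). It was dim in both dyes, and neither dye was well above background on 3 of the arrays.

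The first high block ran from 11241642 to 11268222 (26.6 kb), and 9 of its 12 probes were high. Its high probes averaged 3.88 and 3.98 in P06 plants 35 and 45 and 3.79 and 3.77 in P05 plants 15 and 39. These 4 plant means had an SD of 0.094 around a mean of 3.86. At single probes of the block the SD over plants reached 0.62. The probes were kept for passing the limit on all 4 arrays, so this is no measure of agreement between plants.

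The block began with a run of 3 consecutive high probes, from 11241642 to 11242839. That run had means of 5.06 and 5.26 in P06 plants 35 and 45 and 5.03 and 5.14 in P05 plants 15 and 39. At 2 of its 3 probes M92-220 was not well above background on any array, and the mean of the run over all plants was 5.12, against 2.25 with normexp background correction. Its strongest probe, Gm_CUST_P12861486 (11242368 to 11242427), also had the highest computed mean ratio of the whole stretch. Ratios against a dye that was not well above background have no order among themselves. It gave ratios of 8.59 and 8.54 in the P06 plants and 8.08 and 7.85 in the P05 plants. Mutant Cy3 signals there were 2686, 2734, 2616 and 2725 for plants 35, 45, 15 and 39, while M92-220 Cy5 signals on the same arrays were 7.01, 7.39, 9.70 and 11.9. The M92-220 signals were not well above background on any array, so the ratio is only a bound. Set against the lowest signal that was well above background on each array, the mutant signal was at least 103-fold higher as a geometric mean over the 4 arrays. All bounds given here are such means, and a single array can lie below them.

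A run of 5 high probes followed, from 11251306 to 11268222, with means of 2.90 and 2.94 in plants 35 and 45 of P06 and 2.79 and 2.65 in plants 15 and 39 of P05. Here the M92-220 signal was mostly well measured. Probe Gm_CUST_P12861578 (11268164 to 11268222), the last of the block, gave 6921, 6246, 7062 and 6971 in Cy3 in plants 35, 45, 15 and 39, against 2501, 2424, 2297 and 2793 in Cy5 for M92-220. It had ratios of 1.47 and 1.37 for P06, against 1.62 and 1.33 for P05, so the groups overlapped. The strongest probe of the run, Gm_CUST_P12861558 (11264803 to 11264860), reached 6.26 and 6.79 in P06 plants 35 and 45 and 5.54 and 5.50 in P05 plants 15 and 39. The first block thus held probes at which M92-220 gave almost no signal side by side with probes at which it gave strong signal.

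The second high block, from 12896337 to 12940342 (44.0 kb), held 14 high probes among 32. Their means were 4.02 and 4.23 in P06 plants 35 and 45 and 4.03 and 3.97 in P05 plants 15 and 39. Its center was the longest run of the stretch, 9 high probes in a row from 12919304 to 12928062, at 4.22 and 4.53 in P06 plants 35 and 45 and 4.30 and 4.26 in P05 plants 15 and 39. Every value of that run lay between 2.07 and 7.86. The mean of the run over all plants was 4.33, against 2.35 with normexp background correction, and 6 of its 9 probes were well above background in both dyes on all arrays.

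Its strongest probe was Gm_CUST_P12867606 (12921770 to 12921829), with ratios of 6.82 and 7.86 in P06 plants 35 and 45 and 7.73 and 6.23 in P05 plants 15 and 39. Mutant Cy3 signals of 1324, 1285, 1138 and 1330 for plants 35, 45, 15 and 39 stood against M92-220 signals of 11.73, 5.57, 5.38 and 17.7, none of them well above background. The mutant signal was at least 48.7-fold higher as a geometric mean over the 4 arrays. The spread among plants at this probe came with Cy5 signals near the floor of the scanner, while the Cy3 signals of the same probe varied little. At a neighbor whose M92-220 signal was measurable, Gm_CUST_P12867588 (12919843 to 12919902), Cy3 signals of 5416, 4813, 4872 and 4245 in plants 35, 45, 15 and 39 stood against Cy5 signals of 97.7, 68.7, 132 and 115 for M92-220.

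Probes inside a block were not all shifted. In the second high block 18 of the 32 probes were not, and their mean was -0.11, with probe means from -0.70 to 0.48. Right after the 9-probe run, 4 unshifted probes starting at 12928315, 12928801, 12929295 and 12930132 had means of -0.30, -0.46, -0.53 and -0.60. The next pair of probes, starting at 12930650 and 12931397, was high again at 3.64 and 3.89, and the probe after them, starting at 12932051, had a mean of -0.70. Adjacent probes thus moved between ratios near 4 and ratios below 0 within 2 kb, and did so in every plant. At the probe starting at 12932051 the ratios were -0.76 and -0.64 in P06 plants 35 and 45 and -0.60 and -0.78 in P05 plants 15 and 39.

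The first low block, from 13125971 to 13147122 (21.2 kb), held 14 low probes among 35. The low probes averaged -2.83 and -2.77 in P06 plants 35 and 45 and -2.91 and -2.83 in P05 plants 15 and 39. The SD of these 4 plant means was 0.056, and single probes of the block reached an SD of 0.40 over plants. The other 21 probes averaged -0.19, so this block too was a mixture. It contained 2 of the 3 low runs.

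The run of 4 low probes from 13125971 to 13129446 had means of -2.97 and -2.90 in P06 plants 35 and 45 and -2.98 and -2.80 in P05 plants 15 and 39. At its strongest probe, Gm_CUST_P12868100 (13129388 to 13129446), both dyes were measured on all arrays. Mutant Cy3 signals were 97.6, 98.5, 108 and 142 in plants 35, 45, 15 and 39, against M92-220 signals of 2349, 2346, 2343 and 2500. This gave ratios of -4.58 and -4.57 for P06, against -4.44 and -4.13 for P05. The gap between the lines was small beside the distance from 0, and the tests between lines given below did not call this probe.

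The run of 4 low probes from 13138526 to 13140411 gave means of -2.94 and -2.89 in P06 plants 35 and 45 and -3.11 and -3.02 in P05 plants 15 and 39. Its strongest probe, Gm_CUST_P12868158 (13139409 to 13139468), had 86.2, 88.3, 72.2 and 88.1 in Cy3 in plants 35, 45, 15 and 39, against 1529, 1397, 1569 and 1752 in Cy5 for M92-220. The last probe of the same run, Gm_CUST_P12868160 (13140360 to 13140411), was far weaker, at -1.17 and -1.01 in P06 and -1.11 and -1.04 in P05. It was the low probe closest to the limit on the inside. Just outside the limit, Gm_CUST_P12868133 (13133692 to 13133742) lay in the same block with -0.98 and -1.03 in P06 and -1.12 and -1.34 in P05. At the high limit, Gm_CUST_P12868042 (13110661 to 13110720) was just inside, with 1.23 and 1.41 in P06 and 1.02 and 1.12 in P05. Gm_CUST_P12863554 (11739413 to 11739472) was just outside, with 1.21 and 1.45 in P06 and 0.95 and 1.38 in P05.

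The second low block, from 13214377 to 13232925 (18.5 kb), held 6 low probes among 15. Their computed means were -5.01 and -4.88 in P06 plants 35 and 45 and -4.97 and -4.46 in P05 plants 15 and 39. The 9 unshifted probes among them averaged -0.099. A run of 4 low probes from 13214377 to 13215670 opened the block, at -5.66 and -5.45 in P06 plants 35 and 45 and -5.70 and -5.02 in P05 plants 15 and 39. The mutant signal was well above background on all arrays at only 1 of these 4 probes, Gm_CUST_P12868401, whose mean was -1.93. With normexp background correction the mean of the run was -2.86, against -5.46 with the processed signals.

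Gm_CUST_P12868399 (13214948 to 13215004) had the lowest computed ratio of the stretch, with -9.27 and -8.15 in P06 plants 35 and 45 and -8.99 and -8.41 in P05 plants 15 and 39. Mutant Cy3 signals of 7.24, 15.9, 8.62 and 14.8 in plants 35, 45, 15 and 39 were not well above background on any array, whereas M92-220 gave 4495, 4543, 4381 and 5040. The M92-220 signal was at least 119-fold higher as a geometric mean over the 4 arrays. Only 280 bp further on, Gm_CUST_P12868401 (13215285 to 13215344) had -1.79 and -2.04 in P06 and -1.85 and -2.02 in P05, from Cy3 signals of 272, 273, 302 and 233 in plants 35, 45, 15 and 39 that were all well above background.

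The third high block, from 13246266 to 13259365 (13.1 kb), was the next group of shifted probes after the second low block, with unshifted probes between. It was the smallest block, with 3 high probes among 9. The mean was 3.24 and 2.88 in P06 plants 35 and 45 and 3.07 and 3.09 in P05 plants 15 and 39. Its strongest probe, Gm_CUST_P12868517 (13247431 to 13247485), gave 5.76 and 5.44 in P06 and 5.63 and 5.64 in P05. Of the 6 runs of the stretch, 3 high and 3 low, none lay in this block.

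**Figure D2:**
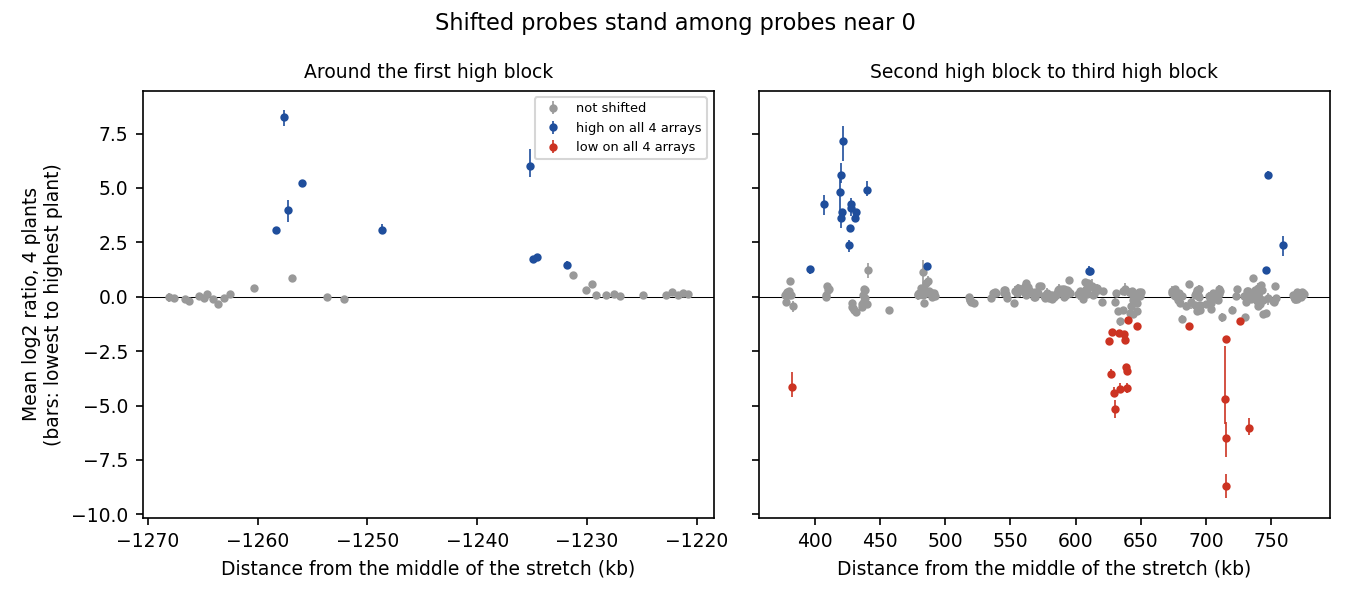
Mean log2 ratio of the 4 plants per probe (vertical axis, bars from the lowest to the highest plant) against distance from the middle of the stretch in kb, around the first high block (left) and from the second to the third high block (right). High (blue) and low (red) probes are interleaved with unshifted probes near 0 (gray); the long bar among the low probes is Gm_CUST_P12868395.

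The remaining 11 shifted probes lay outside the blocks. The largest computed ratios were at Gm_CUST_P12863553 (11738949 to 11739008) on the high side and Gm_CUST_P12867559 (12882767 to 12882826) on the low side. The high one gave 5.76 and 7.64 in P06 plants 35 and 45 and 6.46 and 7.33 in P05 plants 15 and 39. M92-220 was not well above background there on any array, and the mutant was at least 43.3-fold higher as a geometric mean. The low one gave -4.62 and -4.41 in P06 and -4.14 and -3.45 in P05. There the mutant was not well above background on any array, and M92-220 was at least 6.07-fold higher as a geometric mean. A weak pair of high probes at 13110661 to 13111241 averaged 1.19, a short way before the first low block.

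The single dyes showed which DNA gave the weak signal. At the 32 high probes the median Cy3 signal was 904, 948, 879 and 1024 in plants 35, 45, 15 and 39, and the median M92-220 Cy5 signal on the same arrays was 61.2, 61.9, 62.2 and 60.8. At the 25 low probes the median Cy3 signal was 99.97, 107, 108 and 119 in plants 35, 45, 15 and 39, and the median M92-220 signal was 1024, 1049, 1067 and 1005. At the 2507 unshifted probes both dyes had medians between 909 and 951. By these medians the dim dye was that of M92-220 at high probes and that of the mutant plants at low probes. Single probes departed from this. At the high probe Gm_CUST_P12861578 both dyes were above those medians, and at the low probe Gm_CUST_P12868419 mutant Cy3 signals were 2144, 2158, 2193 and 2244 in plants 35, 45, 15 and 39, against M92-220 signals of 4622, 4914, 4532 and 4910. The high probe Gm_CUST_P12867336 was dim in both dyes, with Cy3 signals of 34.3, 57.6, 41.7 and 26.8 in plants 35, 45, 15 and 39 and M92-220 signals of 10.6, 26.4, 9.13 and 10.5.

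The dim dye was often too weak to measure. M92-220 was not well above background on all 4 arrays at 7 of the 32 high probes and on some arrays at 5 more. The mutant was not well above background on all 4 arrays at 8 of the 25 low probes and on some arrays at 2 more. As geometric means over the 4 arrays, the 6 high probes with a bound had the mutant at least 9.43-fold to at least 103-fold higher. The 8 such low probes had M92-220 at least 3.86-fold to at least 119-fold higher, by the same mean. For the seventh of these high probes, the brighter dye was itself near background and no bound was set. In length the shifted probes resembled their neighbors: 28.1% of high, 28.0% of low and 28.5% of unshifted probes were shorter than 60 bp.

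**Figure D3:**
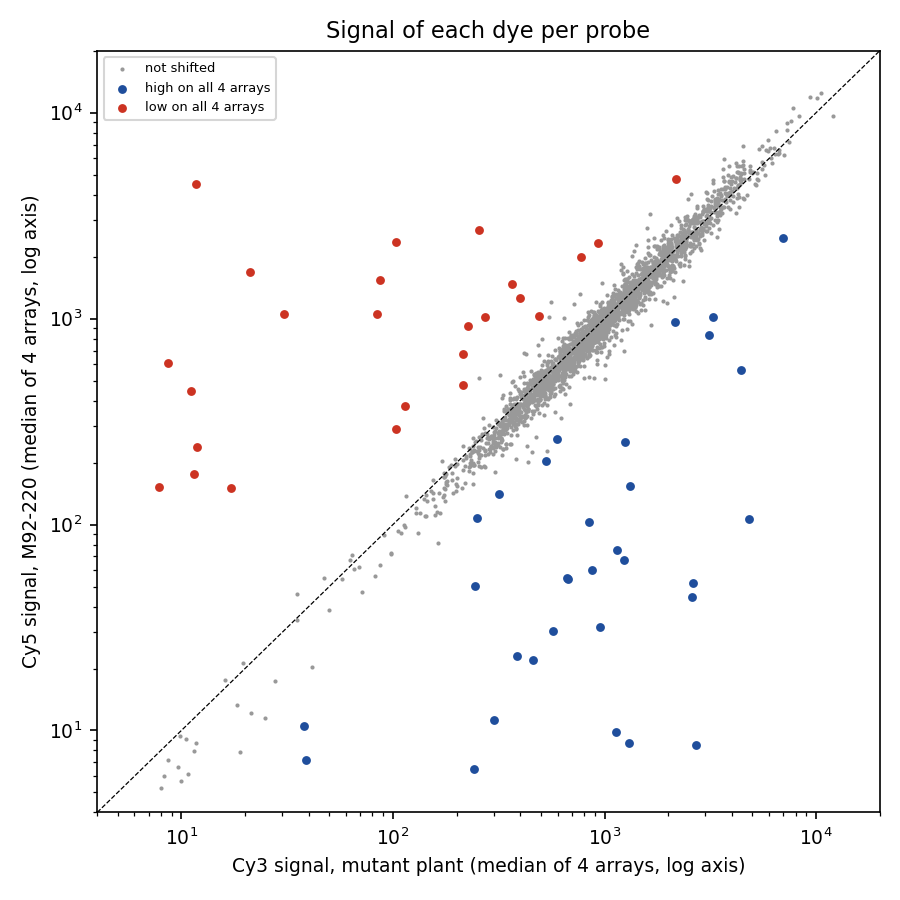
Median processed signal over the 4 arrays of M92-220 in Cy5 (vertical, log axis) against that of the mutant plants in Cy3 (horizontal, log axis), 1 point per probe of the stretch, with equality dashed. High probes (blue) lie below the line, most of them with weak Cy5 signal, and low probes (red) above it, most of them with weak Cy3 signal; a few of each are bright in both dyes, and unshifted probes (gray) follow the line.

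Shifted probes passed the limit on all 4 arrays by definition, so similar plants there are no separate finding. Counted per array, 39, 41, 37 and 45 probes were at 1 or higher in plants 35, 45, 15 and 39, and 26, 27, 26 and 27 were at -1 or lower. The median SD over the 4 plants was 0.188 at high probes and 0.159 at low probes, larger than the 0.081 at unshifted ones. A further 23 probes (20 high, 3 low) passed the limit on some arrays but not on all 4, and at 9 of these neither dye was well above background on any array. No probe was high in one line and low in the other.

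Whether the lines differed within the stretch was tested with limma over all probes of the array, with treat against a log2 difference of 1 and Benjamini-Hochberg adjustment. In P06 minus P05, 0 of the 2564 probes were called, while 734 probes (0.0772%) were called over the array. At an unadjusted p under 0.05 in the same test, 1 probe was higher in P06 and 0 were lower, and over the array 0.0949% passed in either direction. A test against 0 (limma, eBayes) that also asked for a difference beyond 1 called 1 probe of the stretch, against 0.0918% over the array. In simulated ratios the treat test found 0% of line differences of size 2 and 87% of those of size 4. Its 0 calls thus say little about differences of size 2. That test asks for a difference beyond 1. The simulated noise was drawn from the spread within lines at all probes of the array. Shifted probes of the stretch had a larger median SD over plants than unshifted ones, so fewer differences may be found there.

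That 1 probe was Gm_CUST_P12868407 (13215616 to 13215670), the last of the third low run. Its ratios were -5.90 and -5.77 in P06 plants 35 and 45 and -7.02 and -7.35 in P05 plants 15 and 39. The difference was 1.35 with SE 0.118 (limma, eBayes, adjusted p = 0.0144). With normexp background correction the difference was 0.076 and was no longer called (limma, eBayes, adjusted p = 0.814). Behind the difference of 1.35 stood mutant Cy3 signals of 30.2, 32.5, 12.1 and 8.77 in plants 35, 45, 15 and 39. None was well above background. Against M92-220 signals of 1810, 1785, 1574 and 1442 on the arrays of plants 35, 45, 15 and 39, both lines were at the bottom of the scale.

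The 4 probes with the next smallest p in that comparison did not pass an adjusted p of 0.05 (limma, eBayes). Gm_CUST_P12868110 differed by 0.67 (adjusted p = 0.142), Gm_CUST_P12867691 by 0.59 (adjusted p = 0.158), Gm_CUST_P12867595 by -0.66 (adjusted p = 0.175) and Gm_CUST_P12867588 by 0.76 (adjusted p = 0.250). With each plant left out in turn, the difference ran from 0.58 to 0.77 at Gm_CUST_P12868110 and from 0.53 to 0.66 at Gm_CUST_P12867691. It ran from -0.77 to -0.55 at Gm_CUST_P12867595 and from 0.59 to 0.93 at Gm_CUST_P12867588. Each probe passed in some of these fits, but such a fit left 1 plant in a line and called more probes over the array. At each of the 4 probes the plants of one line all lay above the plants of the other. The probes were chosen for a small p in this comparison, so this separation is no separate finding. Over the 57 shifted probes the median absolute difference between line means was 0.160, and 3 probes differed by more than 1.

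One probe separated a single plant from the rest. Gm_CUST_P12868395 (13214377 to 13214436), the first probe of the third low run and singled out after its values were seen, gave -5.66 and -5.86 in P06 plants 35 and 45 but -4.95 and -2.28 in P05 plants 15 and 39. The mutant Cy3 signal was 98.4 in plant 39 and 7.93, 7.58 and 14.4 in plants 35, 45 and 15. Only the mutant signal of plant 39 was well above background, so no size of the difference is given. When plant 15 was left out, this was the 1 probe of the stretch called lower in P06 than in P05 (limma, treat), in a fit that called 1451 probes (0.153%) lower over the array. With 1 P05 plant left, that plant is assumed to vary as the P06 plants do.

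**Figure D4:**
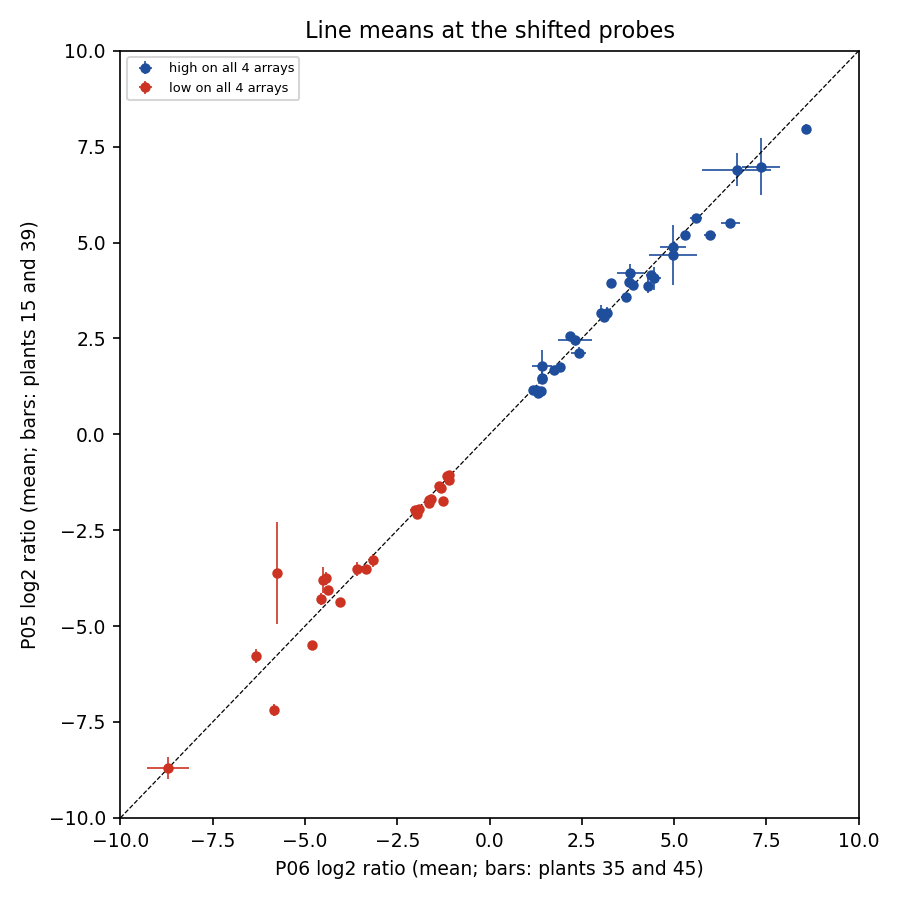
P05 mean log2 ratio (vertical axis) against P06 mean log2 ratio (horizontal axis) at the 57 shifted probes, with bars from one plant of the line to the other and equality dashed. All 57 lie in the same direction in both lines by definition, and 3 differ by more than 1.

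The comparison of P06 with M92-220 used the contrast by which the stretch was found and is only counted. With treat, 25 probes of the stretch were higher and 19 lower in P06 than in M92-220. Over the array, 80 probes (0.00841%) were higher and 832 (0.0875%) were lower.

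The variable stretch had a wide quiet margin on its left and a less clean one on its right. The first shifted probe was Gm_CUST_P12861332 (11134514 to 11134573), a weak low probe at -1.17 and -1.04 in P06 plants 35 and 45 and -1.29 and -1.11 in P05 plants 15 and 39. The last was Gm_CUST_P12869529 (13669193 to 13669252), a low probe with computed ratios of -4.33 and -4.53 in P06 and -3.60 and -3.92 in P05. Its mutant signal was not well above background on any array, so these ratios are not measured sizes. The wild-type signal there was at least 4.71-fold higher as a geometric mean over the 4 arrays. Between the first and the last shifted probe lay 2534.74 kb, and from the first to the last run 1974.03 kb. At the coordinates that bound the stretch the ratios were near 0: the last probe before it had a mean of -0.23 and the first member -0.061, and the last member had 0.042 and the first probe after it -0.011.

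To the left, the next shifted probe was 2.09 Mb away, with 2215 probes between. Its brighter dye had a median signal of 22.8, below the lowest Cy3 signal marked well above background (34.4 to 42.7). To the right, the next shifted probe was only 529 kb away, with 392 probes between, and lay outside the coordinates used here. It started a looser group of 11 shifted probes, 2 high and 9 low, that ended at 14710611. Its leading pair of high probes, starting at 14198397 and 14198698, had means of 7.00 and 5.40. Of the low ones, the probe starting at 14346428 had a mean of -6.75, and the median of the 9 was -1.66. After 14710611 no shifted probe followed for 3.55 Mb (2952 probes). The probe that ended this gap was equally dim, with a median signal of 22.8 in its brighter dye. By this count the right edge depends on where one stops: at 13669252 for the stretch as drawn, or at 14710611 with the looser group.

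Beyond these, chromosome 18 held 23 shifted probes, 16 high and 7 low, which differed in signal from those of the stretch. The brighter dye of the 16 high probes had a median signal of 29.0, against 913 in the stretch, with a range of 15.6 to 238. The brighter dye of the 7 low probes had a median of 47104, against 1035 in the stretch. In windows of 100 kb, 8 of the 30 windows of the stretch held a shifted probe and 5 held 3 or more. In the rest of the chromosome, 25 of 539 windows held one and 1 held 3 or more.

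**Figure D5:**
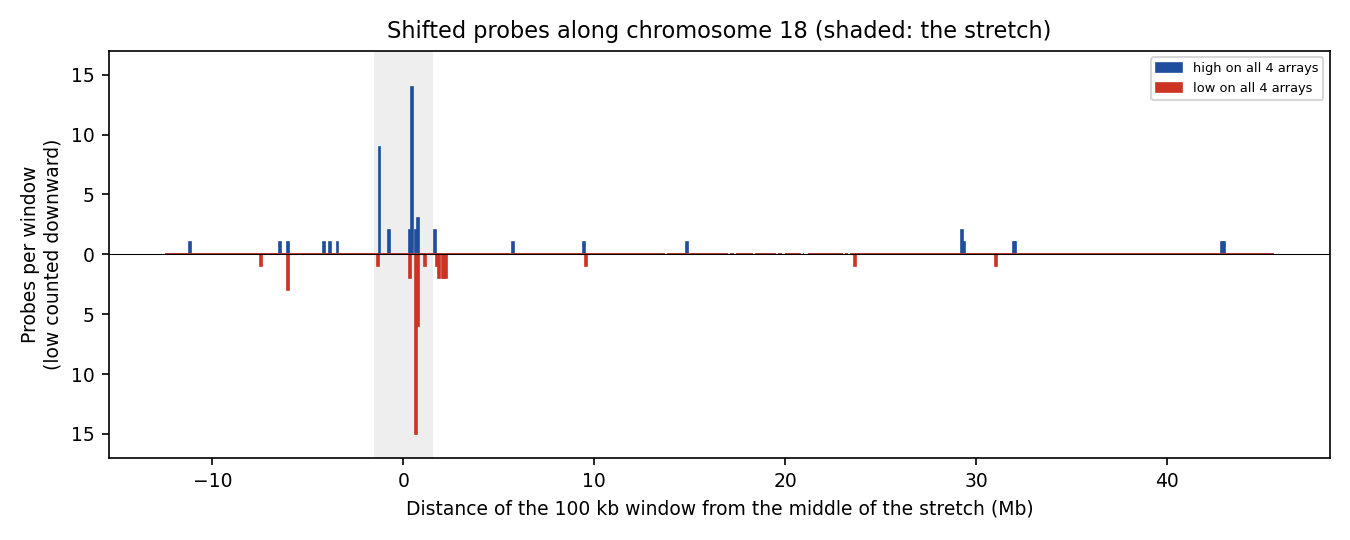
Number of high probes (blue, upward) and low probes (red, downward) in each 100 kb window of chromosome 18 (vertical axis) against the distance of the window from the middle of the stretch in Mb. The fullest windows hold 14 high and 15 low probes and lie in the shaded stretch; the rest of the chromosome reaches at most 2 high or 3 low.

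Shifted probes were also counted in a pair of other regions. On chromosome 6, from 11700424 to 13299898, 10 high and 6 low probes were found among 2713. In the first 2 Mb of chromosome 16, 31 low and 0 high probes were found among 3414. Both directions thus occurred on chromosome 6 as well, while the region of chromosome 16 had low probes only. Ratios chose the regions in every case, so these counts were not tested against each other.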

How the data were processed

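The authors deposited the Agilent Feature Extraction 12.0.0.7 output of each array, with a spot intensity for each dye. Per the file headers, the processed intensity had the background subtracted, was detrended, and had the dyes normalized linearly. A deposited log10 ratio in the same output, of M92-220 to mutant, served only to check the direction. A deposited table of processed log2 ratios was an alternative. Apart from 1 constant per array, it matched the log2 ratio computed here within 0.01 at no less than 99.98% of the probes, and had medians of -0.049, -0.051, -0.024 and -0.024 for plants 35, 45, 15 and 39. All of its columns matched a plant (0 left unmatched).

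Control and flagged spots were left out, spots of a probe were averaged, and log2(Cy3/Cy5) was taken from the processed signals and its median on each array subtracted, without loess or quantile normalization. A probe was well above background as the scanner software marks it. The lowest signal so marked was 34.4 to 42.7 in Cy3 and 24.3 to 28.0 in Cy5, and bounds were set against it.

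A run was at least 3 consecutive probes of the same direction. limma 3.58.1 in R 4.3.3 was fitted over 951298 probes with 1 mean per line, and all 4 arrays shared 1 estimate of the spread. Calls come from treat against a log2 difference of 1, and single probes were tested against 0 with eBayes. The ratio of P06 to M92-220 leaves out the spread of M92-220. On simulated ratios with only P06 changed, the treat test of P06 recovered 37% of probes changed by 2 and 97% of those changed by 4. The test of P06 minus P05 recovered 0% and 87%. Both made 0 wrong calls. Simulated noise was drawn from the spread within lines at all probes of the array, not from that of the shifted probes. Alternatives were normexp background correction (offset 50), no centering, centering by chromosome, the deposited table, flagged spots kept, dim probes left out, other limits and run lengths, eBayes, the P06 arrays alone, and each plant left out. Normexp used the median spot signals, in place of the mean signals first planned.

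The text names every run with its strongest probe, the first and last shifted probe, and the 5 probes with the smallest p in P06 minus P05. Other probes named were chosen after their values were seen. The stretch, the limits and the lists were chosen with earlier results of these data known. No genome or annotation of the files' version was used here, so no gene is named and no sequence is shown. Python 3.11.15, numpy 2.4.6 and pandas 2.3.3 were used.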

Additional observations from a re-analysis of the deposited data

Results flagged for a closer look

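P06 and P05 differed at Gm_CUST_P12868407 (13215616 to 13215670, chromosome 18) by a test of the difference itself, at 1.35 with SE 0.118 (limma, eBayes, adjusted p = 0.0144). The ratios were -5.90 and -5.77 in P06 plants 35 and 45 and -7.02 and -7.35 in P05 plants 15 and 39. With normexp background correction the difference was 0.076 (limma, eBayes, adjusted p = 0.814). Over the alternatives in which the probe had a value, the difference ran from 0.076 to 1.52. The mutant signal was not well above background on any of the 4 arrays, and the part of the background in this difference was not tested further.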

How the results depend on the processing

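No paired analysis was possible because no plant number occurs in both lines. No result changed direction under any alternative. With normexp background correction 21 high and 18 low probes were left, with 2 high and 3 low runs. P06 against M92-220 then had 18 higher and 15 lower calls. With dim probes left out there were 20 high and 15 low probes and 2 high and 2 low runs. P06 against M92-220 had 15 higher and 9 lower calls in that setting. A limit of 0.5 gave 63 high and 39 low probes, and a limit of 2 gave 21 high and 13 low probes and 1 low run. Runs of at least 2 probes gave 7 high runs. With eBayes, P06 against M92-220 had 38 higher calls and P06 minus P05 had 1 call. Leaving out each plant in turn gave 0 to 1 calls in P06 minus P05, 25 to 30 higher and 16 to 21 lower calls in P06, 32 to 35 high and 25 to 26 low probes, and 3 to 4 low runs. The 1 call came without plant 15.

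Run sizes depended on the background step. Under normexp, which adds an offset of 50 to every signal, the high runs from 11241642, 11251306 and 12919304 averaged 2.25, 2.69 and 2.35, and the low runs from 13125971, 13138526 and 13214377 averaged -2.42, -2.07 and -2.86. With dim probes left out, the probes still measured averaged 3.09 (1 of 3 probes), 2.02 (4 of 5) and 3.81 (6 of 9) in the high runs, and -2.70 (3 of 4), -2.91 (3 of 4) and -1.93 (1 of 4) in the low runs, so the first high and the last low run rest on 1 probe each there. No centering, centering by chromosome, the deposited table and flagged spots kept left all counts within 1.5 times. Gm_CUST_P12868407 and Gm_CUST_P12868110 had no value with dim probes left out. Signal over background limits the size of the largest ratios, and 2 plants per line limit the test between lines.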
